A study of Mus musculus with 26 samples.

Results

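The cytosolic ribosome is built from small-subunit (Rps) and large-subunit (Rpl) proteins around ribosomal RNA, and cells make these proteins in step with one another. Many of their mRNAs start with a run of pyrimidines (C and T in the DNA) right at the cap, the 5′ terminal oligopyrimidine or TOP motif, through which mTOR signalling controls their translation. A few ribosomal proteins have paralogs that are made in particular tissues or states, and those can replace the usual copy in a ribosome. The genes described here are the mouse genes whose symbols start with Rpl or Rps and a number, with Rplp0, Rplp1, Rplp2 and Rpsa, without the Rps6k kinases and pseudogenes named -ps. Of these, 50 had a probe set that the array annotation assigns to that gene alone, and 48 of the 50 passed the filter on dim probe sets, among 12888 genes in all. A further 31 genes of the same kind were found in probe sets shared by several genes alone and were not measured by name, Rplp1 among them.

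The 48 were 42 core ribosomal protein genes (20 of the small and 22 of the large subunit), the paralogs Rpl22l1, Rps27l, Rpl39l and Rpl7l1, and a pair of genes that the symbol rule takes in although they encode no core ribosomal protein. These were Rps4l, which RefSeq lists as a transcribed pseudogene, and Rps19bp1, a nucleolar protein that binds Rps19. The 2 that did not pass were Rpl3l, the paralog of striated muscle, and Rps16.

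Expression was measured on 26 arrays. The control group was 3 wild-type (WT) primary osteoblast cultures differentiated in vitro, and against it stood 15 primary tumours of the bone cancer osteosarcoma, 4 lines grown from such cancers and 4 secondary tumours. The labels say of the animals that they were a mouse model, and they give no age, strain, promoter or deleted allele. The secondary tumours 29, 64 and 94 were transplants, and number 66 was tumour tissue that grew from an osteosarcoma cell line. These 4 carry the prefix OPflR, which the labels do not expand. Nothing states whether 1 animal or several gave the 3 osteoblast cultures, and their spread may thus be technical. Values below are log2 intensities of 1 probe set per gene and are compared between samples, never between genes, because probes differ in brightness.

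The labelled cell types were checked against marker genes. The mean level of 7 osteoblast markers was 11.61 to 11.71 in the osteoblast cultures, 10.05 to 12.74 in primary tumours, 11.95 to 12.72 in secondary tumours and 9.20 to 11.71 in the lines. The osteoblast cultures also carried adipocyte markers (7 genes, 11.02 to 11.09, against 5.14 to 7.26 in primary tumours). Macrophage markers (15 genes) were at 8.21 to 10.37 in primary and 8.23 to 9.87 in secondary tumours, against 5.27 to 5.41 in osteoblasts and 5.12 to 5.36 in lines. Endothelial markers (14 genes) were at 6.74 to 7.83 and 6.33 to 7.74 in those tumours, against 5.77 to 6.17 and 5.28 to 5.38. Skeletal muscle markers (15 genes) ranged from 4.69 to 10.83 among primary tumours and from 4.80 to 8.68 among lines, and stayed at 4.49 to 4.92 in secondary tumours and 4.81 to 4.89 in osteoblasts. The part of these other cells in any difference between cultured cells and tumours was not tested, and in whole tissue fewer cells of a type cannot be told apart from less RNA per cell.

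The arrays also fell into 3 sets by the ratios of hybridisation controls, which are bacterial RNAs added to every sample. Set A held the 3 osteoblast arrays. Set B held the primary tumours 119, 12, 29, 64, 66, 87 and 94 with the 4 secondary tumours, and set C held the other 8 primary tumours with the 4 lines. Set A read bioB over bioC (3′ probe sets) at 0.444 to 0.477, set B at 0.390 to 0.447 and set C at 1.04 to 1.17. The 5′ over 3′ probe sets of bioD separated set A, at 0.640 to 0.671, from set B, at 0.347 to 0.448. The labels name no batch. In every comparison with osteoblasts, and between lines and secondary tumours, array set and group cannot be told apart. Among primary tumours the Gapdh 5′ to 3′ ratio, a sign of RNA length, was 0.656 to 0.845 in set B and 0.909 to 1.03 in set C.

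The DNA around the annotated start sites shows what most members share apart from their names. The windows below run from 35 bases before the RefSeq start to 20 bases from it (GRCm38.p6), for the members whose values carry the results that follow, and the capitals mark a run of 6 or more pyrimidines that touches the stretch from 10 bases before to 20 bases after the start. Runs that end further upstream, as in Rps27l and Rpl39l, and runs of C alone or T alone are left in lower case.
Rpl22l1: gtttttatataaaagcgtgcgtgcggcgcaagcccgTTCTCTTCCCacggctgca
Rps27l: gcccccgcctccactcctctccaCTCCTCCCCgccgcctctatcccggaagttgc
Rpl39l: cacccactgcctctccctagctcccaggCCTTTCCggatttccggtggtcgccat
Rps26: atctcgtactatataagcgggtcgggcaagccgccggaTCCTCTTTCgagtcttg
Rplp2: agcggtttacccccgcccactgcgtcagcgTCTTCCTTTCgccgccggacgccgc
Rpl27a: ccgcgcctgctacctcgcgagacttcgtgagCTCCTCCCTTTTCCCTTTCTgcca
Rpl27: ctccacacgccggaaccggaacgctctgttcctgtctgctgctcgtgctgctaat
They lie at chr3:28805473-28805527 (plus strand), chr9:66946051-66946105 (plus), chr16:10170193-10170247 (plus), chr10:128626487-128626541 (minus), chr7:141447616-141447670 (plus), chr7:109519160-109519214 (plus) and chr11:101442210-101442264 (plus), in the order printed. The marked runs of Rpl22l1, Rps27l, Rpl39l, Rps26 and Rplp2 were 10, 9, 7, 9 and 10 bases long, that of Rpl27a was 20, and Rpl27 has none marked.

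RefSeq promoter windows were found for 44 of the 50 genes. A gene was counted for a motif when the window of any of its annotated starts held it. A run of 6 or more C or T on the sense strand touched the stretch from 10 bases before to 20 bases after the start in 30 of the 44 (68.2%), against 40.1% of all 27025 genes with a promoter. Runs of C alone or of T alone were not counted. The motif CCGGAA, read on both strands as CCGGAA or TTCCGG, which is the core that ETS-family factors such as GABP bind, occurred between 250 bases before and 50 bases after the start in 28 of the 44 (63.6%), against 16.7% of all genes with a promoter. Both motifs are descriptions of these letters, and annotated starts may lie some bases from the cap.

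The ribosomal protein genes did not all move in 1 direction between the sample groups, though most leaned lower in tumours than in osteoblasts. The difference was below 0 for 35 of the 48 members and above 0 for 13, in primary and in secondary tumours alike. These counts include members that did not pass the test, and the same share was not taken over all genes. The median difference over all genes was also below 0, at -0.07 in primary and -0.02 in secondary tumours. The median log2 level of the 42 core genes was 12.84 to 12.89 on the osteoblast arrays, 12.78 to 12.89 in the lines, 12.52 to 12.84 in primary tumours (median 12.69) and 12.64 to 12.83 in secondary tumours. The tumour arrays therefore reached lower than both kinds of cultured cells. At the top, primary and secondary tumours overlapped with the lines. With the osteoblasts only primary tumour 188 overlapped, at 12.838 against 12.836 in osteoblast culture 3.

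In primary tumours against osteoblasts, 12 of the 48 genes fell and 1 rose (limma over all 26 arrays, Benjamini-Hochberg adjusted p below 0.05 over 12888 genes, no minimum fold). That is 25% lower and 2.08% higher, where 25.3% of all genes tested were lower and 17.4% higher, so the share of lower members was that of the array as a whole. The median difference was -0.18 over the members and -0.07 over all genes tested. Of the core genes, 4 of 20 small-subunit and 5 of 22 large-subunit genes fell, and Rpl12 rose. The split depended on the scaling: with quantile normalization 6 rose and 6 fell (19.1% of all genes were then higher and 19.8% lower), and with a common 75th percentile 4 rose and 8 fell (22.4% and 21.3%). Array quality weights gave 4 higher and 23 lower members, where 29.4% of all genes were higher and 38.2% lower.

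**Figure D1:**
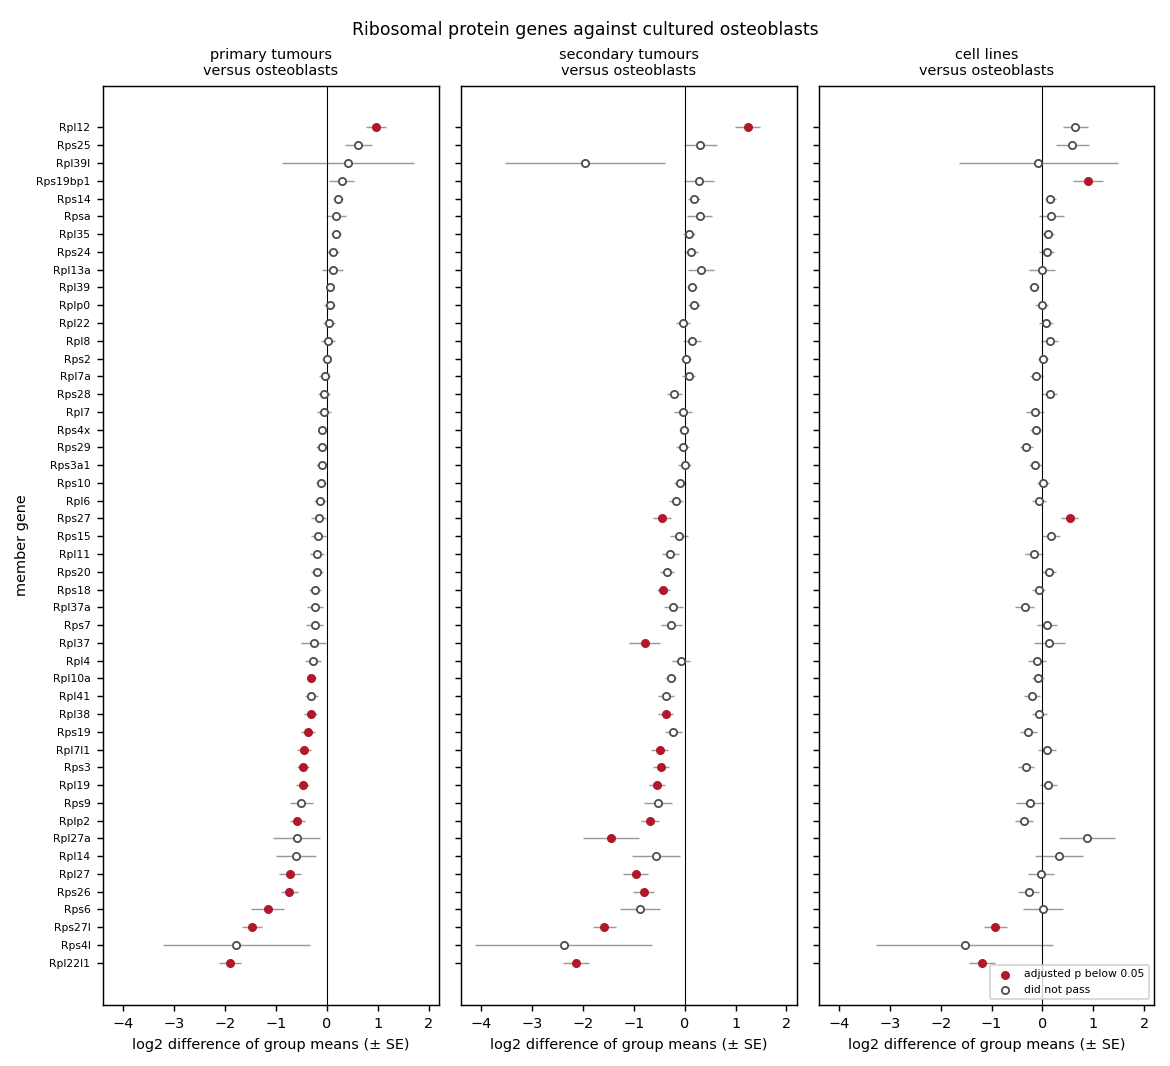
Log2 difference of group means (x axis, ± SE) for the 48 member genes (y axis, ordered by the first panel) in primary tumours, secondary tumours and cell lines, each against the 3 osteoblast cultures, with filled points for genes that passed the test. Most core genes sit close to 0, while Rpl22l1 and Rps27l lie far to the left in all 3 panels.

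The paralogs Rpl22l1 and Rps27l had the largest differences among the calls against osteoblasts. Rpl22l1, the paralog of the large-subunit gene Rpl22, stood at 11.89, 12.01 and 11.99 in the 3 osteoblast cultures. Its levels were 10.37, 11.04, 10.76 and 10.91 in the lines 176, 179, 182 and 213, and 9.74, 10.55, 9.65 and 9.34 in the secondary tumours 29, 64, 66 and 94. In the 15 primary tumours it ranged from 9.55 to 10.86 with a median of 10.01. No sample of any tumour group or line reached the osteoblast levels. The difference from osteoblasts was -1.90 ± 0.21 (SE) in primary tumours, a 3.74-fold lower intensity (adjusted p = 1.45e-07, limma). It was -2.14 ± 0.26 in secondary tumours (adjusted p = 8.55e-07) and -1.19 ± 0.26 in the lines (adjusted p = 0.00209). Against osteoblasts, the primary tumours of set B alone gave -2.10 and those of set C alone -1.73.

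Rps27l, the paralog of the small-subunit gene Rps27 and in human cells a known target of p53, followed the same order. It stood at 11.66, 11.72 and 11.70 in osteoblasts and at 10.41, 10.96, 10.89 and 10.82 in the lines. In primary tumours it ranged from 9.70 to 10.88 (median 10.15), and in the secondary tumours it was 10.20, 10.10, 9.84 and 10.31. All tumours and lines were again below all osteoblast cultures. The difference from osteoblasts was -1.47 ± 0.19 in primary tumours (2.78-fold lower, adjusted p = 1.16e-06), -1.58 ± 0.23 in secondary tumours (adjusted p = 1.15e-05) and -0.92 ± 0.23 in the lines (adjusted p = 0.00656, limma). With quantile normalization the difference of the lines was -0.66 and missed the threshold (adjusted p = 0.0556). The other Rps27l probe sets gave -1.38 and -1.71 in primary tumours.

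Their parents Rps27 and Rpl22 gave no clear contrast with them. Rps27 was read by a dim probe set, with a mean of 6.66 over all arrays. Rps27 differed from osteoblasts by -0.45 ± 0.18 in secondary tumours (adjusted p = 0.0475, limma) and by 0.53 ± 0.18 in lines (adjusted p = 0.0403), and each call was lost when any 1 of the 3 osteoblast arrays was left out. The first was also lost without any 1 secondary tumour and the second without line 182 or 213, with adjusted p from 0.0509 to 0.191 and from 0.0506 to 0.181. Its primary tumour levels were 6.07 to 6.94, around the osteoblast values of 6.58, 6.92 and 6.72. For Rpl22 the 3 probe sets disagreed. The brightest, used here, gave 0.04 ± 0.12 in primary tumours against osteoblasts, and the others gave -0.25 and -1.68, so no direction can be given for that gene.

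**Figure D2:**
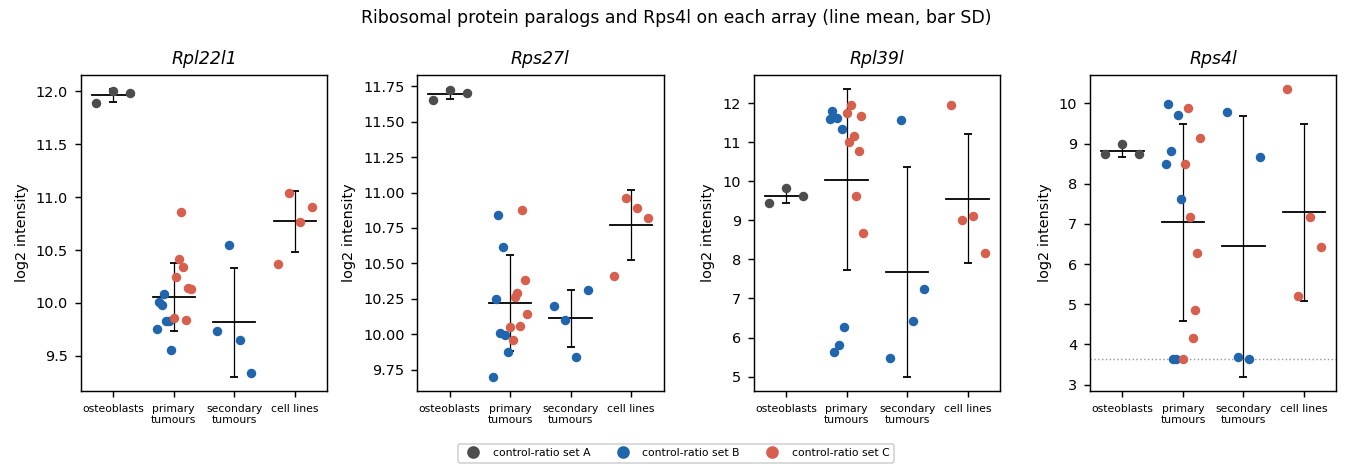
Log2 intensity (y axis) of Rpl22l1, Rps27l, Rpl39l and Rps4l on each array, by sample group (x axis) and coloured by control-ratio set, with the group mean as a line and the SD as a bar; the dotted line is the floor at 3.64. Osteoblasts stand above all other arrays for Rpl22l1 and Rps27l, while Rpl39l and Rps4l spread widely within each tumour group.

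Several core genes were lower in tumours by smaller amounts. Rps26, which lies at the mRNA exit of the small subunit, stood at 13.02, 13.13 and 12.99 in osteoblasts. It ranged from 11.71 to 12.79 in primary tumours (median 12.40) and was 12.44, 12.33, 11.83 and 12.35 in secondary tumours. Neither tumour group overlapped with the osteoblasts. The differences were -0.74 ± 0.17 (adjusted p = 0.00148, limma) and -0.81 ± 0.21 (adjusted p = 0.00456).

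Rplp2, a P-stalk protein that recruits elongation factors, stood at 12.86, 12.99 and 12.87 in osteoblasts, at 11.78 to 12.64 in primary tumours (median 12.36) and at 12.39, 12.51, 12.07 and 11.93 in secondary tumours. These groups did not overlap either, with differences of -0.58 ± 0.15 and -0.68 ± 0.18 (adjusted p = 0.00243 and 0.00402, limma). Rplp0, which anchors the stalk, differed by 0.05 ± 0.10 in primary tumours, and its values in the groups overlapped (adjusted p = 0.705). Rpsa, the small-subunit protein first described as a laminin receptor precursor, differed by 0.18 ± 0.20 (adjusted p = 0.497).

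Rpl27 fell from 12.52, 12.69 and 12.54 in osteoblasts to 10.95 to 12.37 in primary tumours (median 11.81) and to 11.83, 11.89, 11.41 and 11.34 in secondary tumours. The differences were -0.72 ± 0.21 and -0.96 ± 0.25 (adjusted p = 0.00712 and 0.00461, limma), and the other Rpl27 probe sets gave -1.04 and -0.90 in primary tumours. The value depended on the array set, at -1.05 with set B tumours alone and -0.44 with set C tumours alone. The remaining core genes that fell in primary tumours were Rpl19 (-0.48), Rps3 (-0.47), Rps19 (-0.38), Rpl38 (-0.32), Rpl10a (-0.31) and Rps6 (-1.16). Rps19 is mutated in Diamond-Blackfan anaemia in humans, and Rps3 lies at the mRNA entry of the small subunit. The Rps19 and Rpl38 calls were lost when any 1 of the osteoblast arrays was left out (adjusted p from 0.0725 to 0.156 and from 0.0724 to 0.137), and that of Rpl10a without osteoblast culture 2 (adjusted p = 0.0899). With quantile normalization Rps19, Rpl38, Rpl10a, Rpl19 and Rps3 missed the threshold, and with a common 75th percentile Rps19, Rpl38 and Rpl10a did. Rps6, the substrate of S6 kinases, was read by a dim probe set, and the mean of its probe sets gave -0.41 (adjusted p = 0.0712). The paralog Rpl7l1 also fell, by 0.46 on the log2 scale. Its call was lost with quantile normalization, where the difference was -0.23, and without osteoblast culture 2 (-0.41, adjusted p = 0.0693). A common 75th percentile and the mean of its probe sets lost it as well, and over the alternatives the difference ranged from -0.49 to -0.14.

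Rpl12, a protein at the base of the P stalk, went the other way on a probe set of low intensity. It stood at 6.66, 6.49 and 6.47 in osteoblasts, at 6.84 to 8.25 in primary tumours (median 7.44) and at 7.63, 7.98, 7.86 and 7.62 in secondary tumours. Both tumour groups lay wholly above the osteoblasts. The differences were 0.97 ± 0.20 (adjusted p = 0.000426, limma) and 1.23 ± 0.24 (adjusted p = 0.000381).

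**Figure D3:**
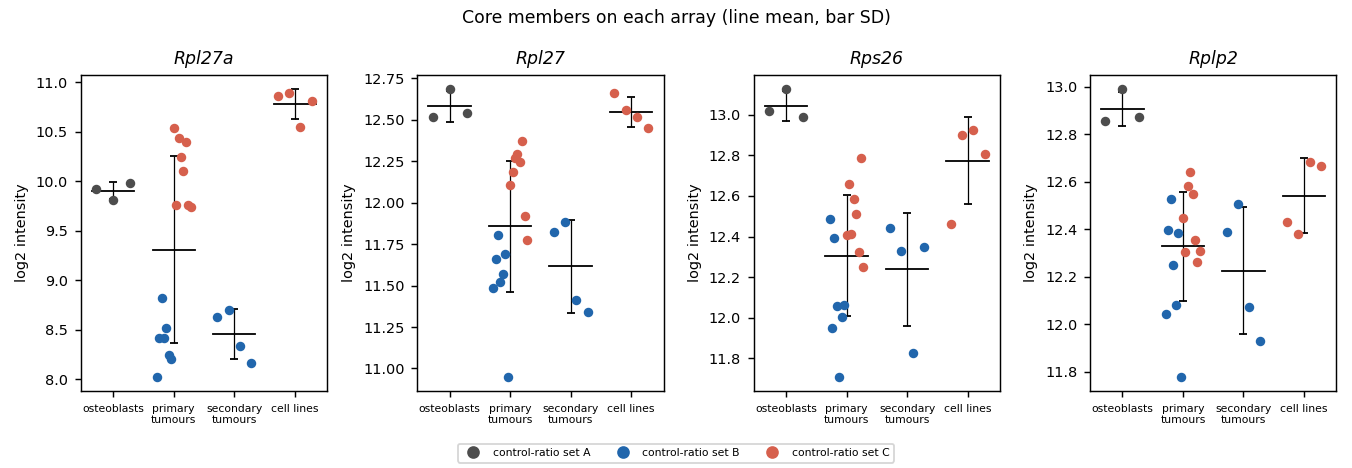
Log2 intensity (y axis) of the core genes Rpl27a, Rpl27, Rps26 and Rplp2 on each array, by sample group (x axis) and coloured by control-ratio set, with the group mean as a line and the SD as a bar. Among primary tumours, Rpl27a separates set B (8.02 to 8.82) from set C (9.74 to 10.54) with no overlap.

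In secondary tumours against osteoblasts, 13 of the 48 genes fell (27.1%, against 19.4% of all genes tested) and Rpl12 rose (2.08%, against 15.8%). The median difference was -0.22 over the members and -0.02 over all genes. The 13 were Rpl22l1, Rps27l, Rps27, Rps26, Rplp2, Rpl27, Rpl19, Rps3, Rpl38 and Rpl7l1, which are described above, and Rpl27a (-1.45), Rpl37 (-0.79) and Rps18 (-0.42). Rps19, Rpl10a and Rps6, lower in primary tumours, did not pass here. Without any 1 of these 7 arrays Rpl27a missed the threshold, with adjusted p from 0.0531 to 0.103. Rpl37 missed it without any but secondary tumour 64 (0.0694 to 0.126), and Rps18 without osteoblast culture 2 or secondary tumour 94 (0.0560 and 0.0705). Rps18 also missed it with the mean of its probe sets and with a common 75th percentile, and over the alternatives its difference ranged from -0.46 to -0.13. Rpl27a and Rpl37 also missed it with quantile normalization, a common 75th percentile and no filter on dim probe sets. Of the genes named above, the calls of Rps3, Rpl38 and Rpl7l1 each rested on several of the 7 arrays. The count of lower members was 6 without osteoblast culture 2, 7 without culture 1 and 8 without culture 3, where 14.7%, 14.5% and 16.3% of all genes were lower. It was 8 without secondary tumour 29 or secondary tumour 66, where 18.5% and 16.6% of all genes were lower. With quantile normalization 4 rose and 7 fell (15.3% of all genes higher, 16.6% lower), and with a common 75th percentile 1 rose and 8 fell (16.5% and 18.4%). This comparison and that of primary tumours share the 3 osteoblast arrays.

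In the lines against osteoblasts, 2 genes rose (4.17%, against 3.82% of all genes tested) and 2 fell (4.17%, against 11.2%). Rpl22l1 and Rps27l fell, as given above, and Rps27 and Rps19bp1 rose. Rps19bp1 stood at 7.11, 7.12 and 6.96 in osteoblasts and at 7.90, 7.95, 8.0 and 8.02 in lines, a difference of 0.90 ± 0.30 (adjusted p = 0.0388, limma). Its call was lost when any 1 of these 7 arrays was left out, with adjusted p from 0.0605 to 0.119. No core gene fell, and the largest core differences that did not pass were 0.88 for Rpl27a and 0.64 for Rpl12. The median was -0.02 over the members and -0.10 over all genes. With quantile normalization 3 rose and 1 fell (5.89% of all genes higher, 6.32% lower) and the median over all genes moved to 0.06, and with a common 75th percentile 3 rose and 2 fell (8.02% and 7.66%). Array quality weights gave 4 higher and 6 lower, where 12.3% of all genes were higher and 28.6% lower. A fit of these groups alone gave 4 higher and 4 lower, against 7.43% and 18.8%.

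The lines were compared with the primary tumours, a contrast of cultured tumour cells with whole tumour tissue. Here 14 of the 48 genes were higher in the lines (29.2%, against 17.5% of all genes tested) and Rpl39 was lower (2.08%, against 20% of all genes). The median difference was 0.14 over the members and -0.03 over all genes. Of the core genes 5 of 20 small-subunit and 5 of 22 large-subunit genes were higher. The count of higher members was 9 without line 182 and 9 without line 213, where 14.6% and 13.1% of all genes were higher. Quantile normalization gave 16 higher and 0 lower, against 21.5% and 15.8% of all genes. Scaling to the same 75th percentile left 15 above and 0 below, against 21.3% and 16.8%. By Gapdh 5′ to 3′ ratio the lines, at 1.04 to 1.08, lay above all primary tumours (0.656 to 1.03) and all osteoblasts (0.916 to 0.967). Secondary tumours spanned 0.839 to 1.08, and the part of this ratio in the comparisons with lines was not tested.

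The lines share set C with 8 of the primary tumours, so the same contrast was run within that set. There 9 of the 48 members were higher and 1 lower, against 16.2% and 14.9% of all genes, so the higher share lay near that of all genes. The median was 0.08 over the members and 0.02 over all genes, closer together than the 0.14 and -0.03 against all 15 tumours. Quoted as log2 differences, the 9 were Rps6 (1.33), Rps19bp1 (0.70), Rpl27a (0.66), Rpl7l1 (0.58), Rps27 (0.55), Rps27l (0.52), Rpl19 (0.50), Rpl27 (0.40) and Rpl10a (0.27). Rpl22l1, at 0.71 ± 0.19 against all 15 tumours (adjusted p = 0.00464, limma), gave 0.54 ± 0.21 within set C and just missed the threshold (adjusted p = 0.0549). Rps26 dropped from 0.47 ± 0.16 (adjusted p = 0.0205) to 0.28 ± 0.13 (adjusted p = 0.116), and against all 15 its call was lost without line 179, 182 or 213 (adjusted p from 0.0569 to 0.0773). Without line 179 the call of Rps27l was lost as well (adjusted p = 0.0558).

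Rpl19, a large-subunit protein, was higher in the lines in both fits. It stood at 12.95, 12.79, 12.83 and 12.87 in the lines 176, 179, 182 and 213 and at 11.87 to 12.67 in primary tumours (median 12.26), with no overlap. The difference was 0.59 ± 0.12 against all 15 tumours (adjusted p = 0.000396, limma) and 0.50 ± 0.11 within set C (adjusted p = 0.00288). Rps27 stood at 7.04, 7.07, 7.49 and 7.49 in the same lines, above the 6.07 to 6.94 of the primary tumours (median 6.50). The differences were 0.69 ± 0.13 (adjusted p = 0.000211) and 0.55 ± 0.13 within set C (adjusted p = 0.00342). Rpl39, a small protein of the exit tunnel, was lower in the lines by 0.22 ± 0.07 (adjusted p = 0.0191), a call lost without line 179 (adjusted p = 0.0717) or line 213 (adjusted p = 0.0754) and under both other scalings.

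**Figure D4:**
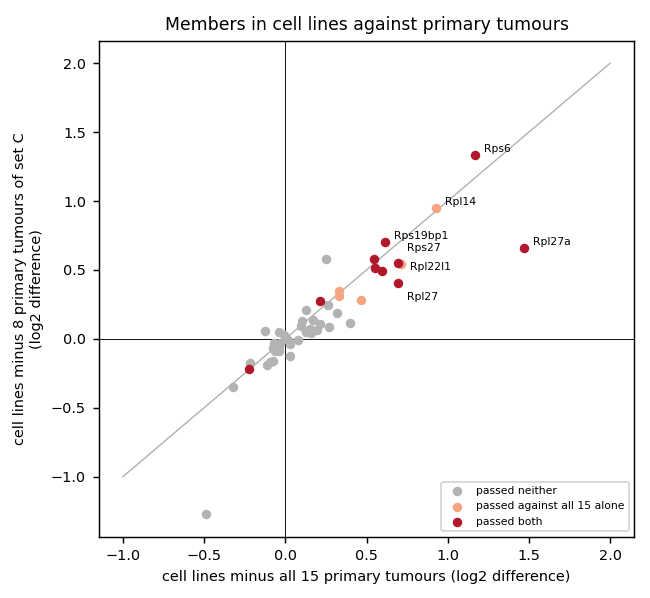
Log2 difference of the 4 lines from all 15 primary tumours (x axis) against the difference from the 8 primary tumours of set C (y axis), 1 point per member gene, with the line of equal values. Points for Rps6, Rps19bp1 and Rps27 stay near the line, while Rpl27a drops from 1.47 to 0.66 when set B tumours are left out.

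Rpl27a, a large-subunit protein, differed between the array sets within the primary tumours. Its levels were 8.02 to 8.82 in the 7 primary tumours of set B and 9.74 to 10.54 in the 8 of set C, with no overlap. The secondary tumours, all of set B, were at 8.63, 8.70, 8.34 and 8.16, the osteoblasts at 9.92, 9.81 and 9.98, and the lines at 10.86, 10.89, 10.55 and 10.81. Between the primary tumours of sets C and B the difference was 1.74 ± 0.15 (adjusted p = 9.91e-06, limma). That comparison called 5 members higher in set C and 0 lower, against 4.45% and 11.3% of all genes tested. The other 4 were Rpl27 (0.62), Rpl37 (0.60), Rps26 (0.40) and Rps28 (0.29). The Gapdh 5′ to 3′ ratio moved with the same split, as given above, and its part in these values was not tested.

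The lines against secondary tumours gave 11 higher members (22.9%, against 12.7% of all genes tested) and 2 lower, Rpl12 and Rpl39 (4.17%, against 17.6%). The medians were 0.18 and -0.07. Rpl27a (2.32), Rps27 (0.98), Rpl22l1 (0.95), Rpl27 (0.93) and Rpl37 (0.93) had the largest differences among the calls. With either other scaling 18 members were higher and 0 lower, and the median over all genes moved to 0.08. Of all genes, 17.7% were then higher and 12.6% lower with quantile normalization, and 18.6% and 12.8% with the common 75th percentile. The lower count was 0 without secondary tumour 66, where 15.3% of all genes were lower. The call of Rpl12 was lost without any 1 of these 8 arrays (adjusted p from 0.0558 to 0.116), that of Rpl39 without secondary tumour 66 (adjusted p = 0.0508), and the call of Rpl37 was lost without secondary tumour 94 (adjusted p = 0.0552).

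No member passed the test between secondary and primary tumours (0 of 48, limma), where 0.00776% of all genes, 1 gene, passed as higher and 0% as lower. At an unadjusted p below 0.05, 3 members and 1222 of all genes differed. The median difference was -0.02 over the members and 0.04 over all genes. With the 4 secondary tumours paired to the primary tumours of their numbers, 0 members passed either way and the median over the members was 0.04.

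Rpl39l and Rps4l had the widest spread from tumour to tumour among the measured members. Rpl39l, the paralog of Rpl39 that is abundant in mouse testis, had an SD of 2.32 over the 15 primary tumours, and Rps4l one of 2.45, where the median SD of the measured members was 0.23. Rpl39l was at 9.46, 9.83 and 9.62 in osteoblasts. In primary tumours it was at 5.63 in tumour 29, 5.80 in tumour 66 and 6.26 in tumour 94, and between 8.67 and 11.95 in the other 12. In secondary tumours it was at 5.49 in tumour 29, 11.56 in 64, 6.42 in 66 and 7.25 in 94. The numbers with low levels in the primary were thus the ones with low levels in the secondary tumour, and number 64 was high in both, at 11.62 in the primary. In the lines it was at 11.94 in 176, 9.0 in 179, 9.12 in 182 and 8.16 in 213. Within the 4 pairs of a secondary and a primary tumour the differences were -0.14 for number 29, -0.06 for 64, 0.62 for 66 and 0.98 for 94, and the fit with the tumour number as a block gave 0.35 (adjusted p = 0.556, limma). The unpaired difference, which sets these 4 against all 15 primary tumours, was -2.37 ± 1.15 (adjusted p = 0.525, limma). No group difference of Rpl39l passed.

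Rps4l was at 8.73, 8.98 and 8.73 in osteoblasts. It lay at the floor of 3.64 in the primary tumours 64, 66 and 176, at 4.17 in 188 and 4.86 in 330, and between 6.28 and 9.98 in the other 10. In secondary tumours it was at 9.79 in 29, 3.68 in 64, at the floor in 66 and 8.65 in 94, against 8.83, the floor, the floor and 7.62 in the primary tumours of the same numbers. In the lines it was at 10.36 in 176, where the primary tumour of that number lay at the floor, 5.19 in 179, 7.16 in 182 and 6.43 in 213. No group difference passed (the largest was -2.38 ± 1.75 between secondary tumours and osteoblasts, adjusted p = 0.302, limma). Whether its probe set also reads the parent-related Rps4x could not be seen here; Rps4x itself differed by -0.09 ± 0.09 between primary tumours and osteoblasts (adjusted p = 0.407).

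Rpl3l, left out of the tests as dim, was at the floor in all 3 osteoblast cultures. In primary tumours it reached 6.28 in tumour 12, 5.66 in 29, 6.43 in 179 and 5.59 in 182, and was at 4.67 or less in the other 11. Those 4 tumours also had the highest skeletal muscle marker levels among the primary tumours (10.76, 10.83, 10.64 and 10.25). Rpl3l was at 4.50 or less in the lines and at 3.72 or less in the secondary tumours.

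Other genes that serve the ribosome were counted in lists. Among 17 measured mRNAs of the TOP class that encode no ribosomal protein, 8 were lower (47.1%, against 25.3% of all genes tested) and 0 higher (against 17.4%) in primary tumours than in osteoblasts, led by Npm1 (-1.59), a nucleolar chaperone, and the initiation factor subunits Eif3e (-1.21) and Eif3f (-1.06). In the lines against primary tumours 8 were higher (47.1%, against 17.5%) and 0 lower (against 20%), with Npm1 at 1.44, Eif4b at 1.03 and Eif3h at 0.94. Among 22 further genes of translation initiation 7 were lower (31.8%) and 1 higher (4.55%) in primary tumours than in osteoblasts, with Eif3c at -1.22 and Eif3b at 0.74. In the lines 8 were higher (36.4%) and 1 lower (4.55%) than in primary tumours, against the same shares of all genes. Eif4ebp1 led those 8 at 1.51. It is on the list but is no initiation factor, as it holds back cap-dependent initiation when mTOR is inactive. The medians of the TOP-class and initiation lists were -0.42 and -0.34 in primary tumours against osteoblasts, against -0.07 over all genes.

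Among 35 ribosome assembly factors 5 were lower (14.3%) and 2 higher (5.71%) in primary tumours than in osteoblasts, where 25.3% and 17.4% of all genes were, so fewer were lower than over the array. In the lines against primary tumours 14 were higher (40%, against 17.5%) and 0 lower, with Utp20 at 1.28 and Pes1 at 0.96. Among 14 genes of RNA polymerase I and its factors these counts were 4 lower (28.6%) and 1 higher (7.14%), and 3 higher (21.4%) and 0 lower. The mitochondrial ribosomal proteins, which belong to a separate ribosome, had 38 of 76 lower (50%, against 25.3% of all genes) and 2 higher (2.63%) in primary tumours than in osteoblasts (median -0.44). In the lines against primary tumours 45 were higher (59.2%, against 17.5%) and 1 lower (1.32%), with a median of 0.47. Within set C the latter counts were 38 and 1, against 16.2% and 14.9% of all genes. The cytosolic members' medians in the same contrasts were -0.18 and 0.14. The proliferation markers (13 genes) had mean levels of 8.62 to 8.74 in osteoblasts, 8.74 to 9.54 in lines, 8.18 to 9.97 in primary and 8.77 to 10.16 in secondary tumours. Myc differed by 0.10 ± 0.21 between primary tumours and osteoblasts (adjusted p = 0.725, limma). Mycn lay at the floor in all osteoblast cultures and lines, at 4.82 to 8.32 in primary tumours and at 6.87 to 9.20 in secondary tumours. The part of either gene in the member values was not tested.

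The same counts were made over every kept probe set. Of 99 probe sets of the members, 23 were lower and 5 higher in primary tumours than in osteoblasts, and of 103 kept probe sets that several genes share and that list a ribosomal protein gene, 26 were lower and 4 higher. That is 23.2% and 25.2% lower and 5.05% and 3.88% higher, where 22.8% of all 27344 kept probe sets were lower and 23.9% higher. In the lines against primary tumours the counts were 22 higher and 3 lower, and 16 higher and 7 lower. The higher shares were 22.2% and 15.5%, against 16% of all kept probe sets, and the lower shares 3.03% and 6.8%, against 25.2%. Ribosomal protein genes have many near-identical pseudogene copies, so a probe set may read more than the gene it names.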

How the data were processed

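RNA from 26 mouse samples was extracted with Trizol and QIAGEN columns, primed with oligo-dT, copied by T7 polymerase into biotin-labelled cRNA and hybridised to 1-colour arrays, per the labels' protocols. The authors deposited 1 linear intensity for each of 45101 probe sets; how the authors summarised, background-corrected and scaled them is not given in the sources used here. Intensities were floored at the 20th percentile of all values (log2 3.64) and log2 transformed, and a probe set was kept when 3 or more arrays exceeded the median of all values. Names came from the platform annotation, in which 34958 probe sets had 1 symbol, 932 several and 9211 none. Each gene was read by its kept 1-symbol probe set with the highest mean. limma 3.58.1 in R 4.3.3 fitted all 26 arrays with 1 mean per group and no covariate, and p-values were adjusted over 12888 genes. The number of arrays, at 3 osteoblast, 4 line and 4 secondary tumour arrays, limits the precision. The fit was tested on simulated data.

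The members and gene lists were chosen with earlier results of these data known. Members named are the P-stalk genes, Rpsa, the paralogs and their parents, the 5 largest differences each way per comparison, those past 2-fold, and the extremes over primary tumours; others named in counts were chosen after their values were seen. Numbers shared by tumours were checked for pairing: over all genes, each of the 4 secondary tumours correlated best with the primary tumour of its number (r of deviations from group means 0.449, 0.302, 0.224 and 0.642), so those numbers pair the samples. The 3 lines did not (0.0355, 0.0813 and 0.0387). Promoters came from RefSeq (GRCm38.p6). Alternatives covered scaling, floor, filter, probe set choice, weights, array set, replicate block and each array left out.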

Additional observations from a re-analysis of the deposited data

Results flagged for a closer look

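Of 78 groups of 4 arrays (the named members and the core median, in lines and in secondary tumours) examined with Dixon's ratio, 2 had a sample far from the other 3, where chance gives about 1 in 20 groups. Rpl7l1 was at 8.68 in cell line 176, against 8.92 to 8.95 in the other lines. Rps4x was at 12.93 in secondary tumour 94, against 13.17 to 13.21 in the other secondary tumours.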

How the results depend on the processing

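The counts of members that passed, and the medians over members, are given for the alternatives that moved them; the cause was not tested unless the construction shows it. Quantile normalization gave 6 higher and 6 lower members in primary tumours against osteoblasts (median -0.0503), 1 lower in lines against osteoblasts (median 0.2059, with the sign turned), 4 higher and 7 lower in secondary tumours against osteoblasts (median -0.1028), 0 lower in lines against primary tumours (median 0.2533), and 18 higher and 0 lower in lines against secondary tumours (median 0.3434). A common 75th percentile gave 4 higher in primary tumours against osteoblasts (median -0.0777), a median of 0.1565 in lines against osteoblasts (with the sign turned), 8 lower in secondary tumours against osteoblasts, 0 lower in lines against primary tumours, and 18 higher and 0 lower in lines against secondary tumours (median 0.3324). Without a filter on dim probe sets 2 were higher in primary tumours against osteoblasts (13.3% of all genes) and 2 lower in lines against primary tumours (14.8%). With the filter at the 75th percentile 2 were higher in primary tumours (16.3% of all genes) and 1 in lines (3.57%), both against osteoblasts. The mean of the probe sets of Rpl22 gave -0.6314 in primary tumours against osteoblasts, opposite in sign to its brightest probe set. Array quality weights gave 4 higher and 23 lower in primary tumours (29.4% and 38.2% of all genes) and 4 higher and 6 lower in lines (12.3% and 28.6%), both against osteoblasts. They gave 2 lower in lines against primary tumours (25.3%). A 2-fold minimum can remove calls alone. Against osteoblasts it left 0 higher and 3 lower in primary tumours (6.58% and 11.9% of all genes), 0 higher and 1 lower in lines (1.58% and 6.64%) and 3 lower in secondary tumours (10.8%). It left 2 higher and 0 lower in lines against primary tumours (4.72% and 7.03%), and 1 higher and 0 lower in lines against secondary tumours (4.77% and 8.4%). With both compared groups alone in the fit, 4 were higher and 4 lower in lines against osteoblasts (7.43% and 18.8%) and 1 lower in lines against secondary tumours (18.2%). Primary tumours of set C alone gave a median of -0.0767 against osteoblasts and 9 higher members in the lines (16.2% of all genes). Without the paralogs, Rps4l and Rps19bp1, an alternative chosen after seeing the data, as were the fits over every probe set and of set C against set B, 1 was higher and 0 lower in lines against osteoblasts.

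The replicate block on the tumour number gave 0 higher and 0 lower in secondary against primary tumours over 4 pairs. These counts were 0 without it too, and its median of 0.0384 had the sign turned from -0.0223. For the lines, which share a number but no correlation with their primary tumours, the block over 3 pairs gave 1 higher and 0 lower. Of all genes, 2.05% were then higher and 2.98% lower, so the calls fell over the whole array.

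Leaving out each array in turn gave these ranges. In primary tumours against osteoblasts 1 to 3 members were higher and 8 to 14 lower (median -0.2112 to -0.1451), against 11.7% to 18.4% and 18.5% to 26% of all genes. In lines against osteoblasts 0 to 1 were higher and 2 lower (-0.0671 to 0.0159), against 2.04% to 3.41% and 6.59% to 10.7%. In secondary tumours against osteoblasts 1 was higher and 6 to 11 lower (-0.2769 to -0.1909), against 11% to 14.2% and 14.5% to 18.7%. In lines against primary tumours 9 to 14 were higher and 0 to 2 lower (0.1156 to 0.154), against 13.1% to 18.6% and 15.6% to 21.1%. In secondary against primary tumours 0 were higher and 0 lower (-0.0664 to 0.0088), against 0.00776% and 0%. In lines against secondary tumours 8 to 10 were higher and 0 to 2 lower (0.1006 to 0.2157), against 9.67% to 12.6% and 14.2% to 16.4%. Of 59 calls of single members, 19 kept their direction and side of the threshold under all alternatives run, 40 were lost under 1 or more, 26 of them when a single array was left out, and 0 turned direction. The arrays' number, not a depth, limits these values, and dim probe sets such as those of Rpl12, Rps27 and Rps6 lie nearer to background.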
